A study of Saccharomyces cerevisiae with 18 samples.

Results

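The genes described here encode the nuclear subunits of the mitochondrial respiratory chain and ATP synthase of budding yeast, Saccharomyces cerevisiae. They were chosen by name: 12 genes of ATP synthase, 9 of complex III, 9 of complex IV, 4 of complex II and 3 NADH dehydrogenases, 37 in all. A gene can be measured here only where its transcript carries a single-nucleotide variant (SNV) between the parents of a hybrid, and 30 of the 37 did, with 167 of the 30497 SNVs and 30 of the 3974 transcript features in the data. ATP3, ATP15, ATP17, TIM11, COX5A, COX6 and COX7 had no such variant in the table used and have no value. All 37 identifiers carried the listed gene's name in the R64 reference annotation.

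The study asked whether messenger RNAs (mRNAs) of 2 parental alleles decay at different rates in 1 cell. All 18 libraries came from 1 diploid, a cross of the laboratory strain BY4716 (BY), which matches the reference sequence, and RM11-1a (RM), a wild Californian vineyard strain. Each parent had been given rpb1-1, which inactivates RNA polymerase II when warmed, so every library shares this mutation. Groups were the 6 times after the shift, 0, 6, 12, 18, 24 and 42 min, each with 3 libraries from 3 independent cultures grown in YEPD at 24 °C and taken to 37 °C by adding medium of 50 °C. No unshifted culture and no hybrid with wild-type polymerase was among the samples, so effects of heat and of blocked transcription cannot be told apart.

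In respiration, NADH dehydrogenases and complex II (succinate dehydrogenase) pass electrons to ubiquinone, complex III passes them to cytochrome c, complex IV hands them to oxygen, and ATP synthase uses the resulting proton gradient. Budding yeast lacks the multisubunit complex I of mammals and uses single-polypeptide NADH dehydrogenases in its place. It ferments on glucose and keeps many respiratory genes low, and the Hap2/3/4/5 complex, which binds CCAAT boxes, activates them when glucose runs out. Puf3 binds TGTANATA elements in the 3′ untranslated regions of many mRNAs for mitochondrial proteins.

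The upstream sequences of these genes were searched for the CCAAT box. The letters CCAATNA, where N is any base, were searched on both strands in the 400 bases before each start codon of the R64 (sacCer3) reference. They occurred upstream of 30 of the 37 genes (81.1%), against 1190 of 6007 protein-coding genes (19.8%). By complex, 11 of 12 ATP synthase genes, 8 of 9 complex IV genes, 6 of 9 complex III genes, 3 of 4 complex II genes and 2 of 3 NADH dehydrogenase genes had a match. ATP1, QCR2, QCR6, CYT1, COX4, SDH4 and NDE2 had none in this window. The matches of the genes with the largest changes below, and of COX5A for comparison with its isoform COX5B, are shown 5′ to 3′ on the strand of the gene, with the match in capitals; in COX5A the match is on the opposite strand and reads TNATTGG.
SDH2 (chrXII:54068-54096, minus strand): ctcgcattggcCCAATTAgctccggtgta
NDI1 (chrXIII:30017-30045, minus strand): attcattcggaCCAATCAtatgaaggcat
QCR7 (chrIV:1496712-1496740, minus strand): tcttgttttgaCCAATCAggagcgacgcg
QCR8 (chrX:106212-106240, plus strand): ttttttttaagCCAATGAaaatgaagaaa
COX13 (chrVII:144585-144613, plus strand): tttttttcccaCCAATGAgaggcggtact
COX5B (chrIX:155139-155167, plus strand): taaacaatagaCCAATTAtttcaatttaa
COX5A (chrXIV:531567-531595, plus strand): ttcctcgtttgTGATTGGccctacgtttt
ATP7 (chrXI:408149-408177, minus strand): taaaagatacaCCAATTAccacttgctgc
The match shown began 154 bases before the start codon in SDH2, 227 in NDI1, 181 in QCR7, 211 in QCR8, 212 in COX13 and 177 in ATP7, and 72 in COX5B. ATP7 had another match, not shown, on the opposite strand at 222 bases before the start codon.

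The Puf3-type letters TGTANATA, searched on the gene's strand in the 200 bases after each stop codon, gave fewer matches. They followed 4 of the 37 genes (10.8%), against 844 of 6008 protein-coding genes (14%). These 4 were ATP1, TIM11, SDH1 and COX8, and 3 of them could be measured. Their elements are shown for reference beside the decay results, in the same form.
ATP1 (chrII:38729-38758, plus strand): tcaaaaagaaaTGTAAATAtagaaatttta
SDH1 (chrXI:169090-169119, minus strand): actcactaattTGTATATAtacctattaat
COX8 (chrXII:909679-909708, minus strand): ggatagatgtgTGTACATAgcgtgcttggt
A match of letters describes the reference sequence and is no evidence that a factor binds there.

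The 18 libraries held 439453 to 1180513 reads that could be assigned to a parent, apart from the library of 18 min replicate 3, with 74320. The 30 measured genes took 312508 of 13626796 such reads (2.29%), from a mean of 12.72 reads per library for NDE2 to 1989 for QCR2. Each had 1 to 28 SNVs (median 3), and 6 had a single SNV. Transcripts of 10 of the 30 were counted together with an overlapping gene, since the libraries do not keep strand, and these are written with both names at first use (such as QCR6/PHO4). Values for such a feature cannot be given to 1 of its genes. Levels are in counts per 1e6 allelic reads (CPM), scaled between libraries by TMM (trimmed mean of M values). CPM depends on how many SNVs a gene has, so levels are compared between times and never between genes. CPM is also a share of the mRNA that remained at that time and is no count of molecules per cell: a transcript lost more slowly than most others has a rising share, and its loss per cell cannot be told apart from that of the rest.

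The first comparison asked how the share of these transcripts moved by 42 min. Most were higher than at the start: 24 of the 28 with a mean of at least 20 reads per library rose, 1 fell and 3 did not pass the test (edgeR's quasi-likelihood test, Benjamini-Hochberg adjusted p under 0.05 over all features). Across all 2840 features tested 76.3% passed, 37.2% as higher and 39.0% as lower. The median change of the 28 was 0.66 on the log2 scale, or 1.58-fold, against -0.05 for all features, whose quartiles were -0.93 and 0.70. Of all features, 73.9% had a lower change than this median. The 28 together summed to 29090, 28232 and 31718 CPM at 42 min and to 18638, 18776 and 17762 CPM at 0 min (replicates 1, 2 and 3). The 3 libraries of 42 min all lay above the 3 of 0 min for 21 of the 28, against 37.3% of all features. Changes are fitted log2 changes, and the ± after one is a standard error taken from the fit (the size of the change over the root of F).

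Scaling matters for these counts. With library totals in place of TMM factors the median of all features was -0.37, and 34.9% of all calls were higher, against 48.8% under TMM. The 28 members then had 17 calls higher and 2 lower and a median of 0.34. This is 0.71 above the median of all features, as under TMM (0.71). A change of scaling moves all features nearly alike, so this gap is kept almost by construction and tests nothing. With a mean of at least 100 reads, 19 of 26 members rose and 1 fell. Their median then lay 0.53 above that of all features.

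**Figure D1:**
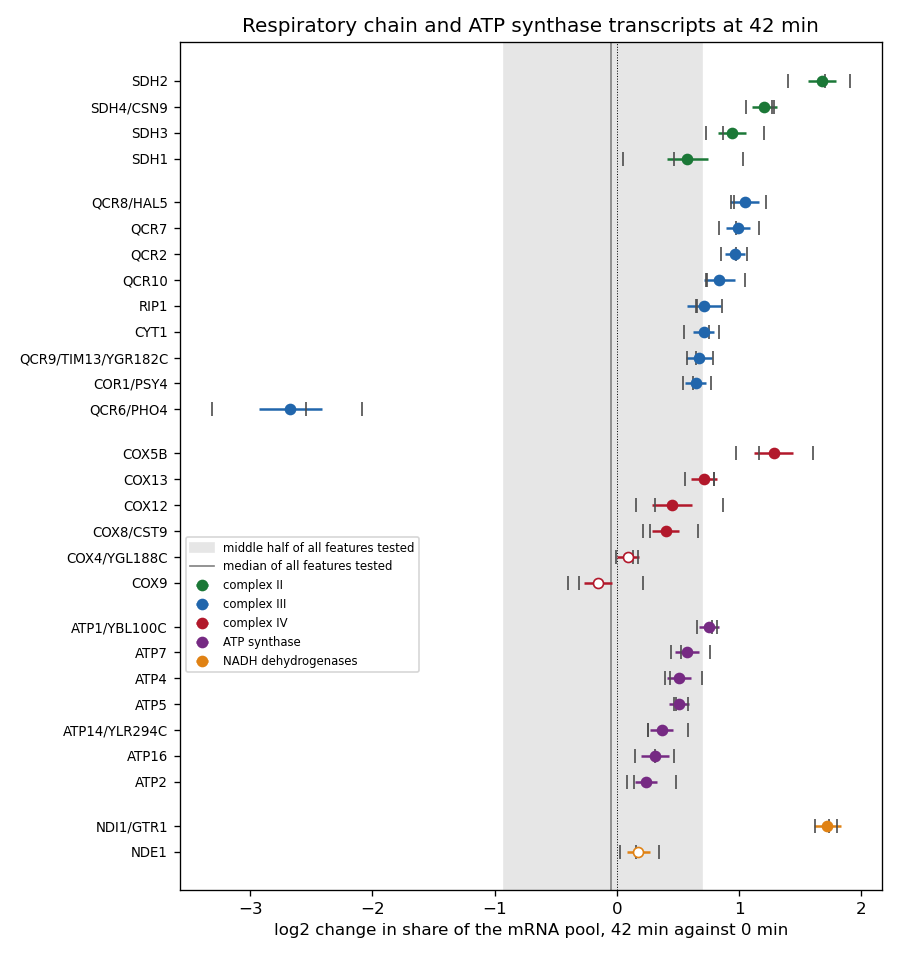
Fitted log2 change in CPM of each measured gene, 42 min against 0 min, grouped by complex. Filled points passed the test and open points did not, bars are ± the standard error, ticks are the 3 cultures, and the grey band runs between the quartiles of all features. NDI1 (counted with GTR1) and SDH2 sit highest, at 1.72 and 1.68, QCR6 (counted with PHO4) lies at -2.67, and COX4, COX9 and NDE1 are open.

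Complexes differed in how far their transcripts moved. The median change was 1.07 for complex II, 0.71 for complex III, 0.51 for ATP synthase and 0.43 for complex IV, and 0.95 for the NADH dehydrogenases, where only 2 genes could be tested. The medians of complexes were not tested against each other, since the members were picked by name and are not replicates. In the 3 cultures taken alone, the median of complex II was 0.89, 1.07 and 1.24, that of complex III 0.83, 0.66 and 0.79, and that of ATP synthase 0.44, 0.39 and 0.58. Complex II was thus highest of these 3 in each culture, with shared features included. In features of 1 gene its median was 0.94, against 0.84 for complex III. In culture 1 the middle value of complex II was then 0.73 (SDH3), below the 0.86 of complex III (RIP1). Complex IV spread most, at 0.19, 0.29 and 0.73.

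The NADH dehydrogenases feed the chain. Ndi1 oxidises NADH on the inner, matrix side of the inner membrane, and its feature NDI1/GTR1 (YML120C, chromosome XIII, 28266 to 29807, minus strand; GTR1 encodes a small GTPase of TORC1 signalling) had the largest rise among the 28 tested. It had 2050, 2245 and 2472 CPM at 42 min and 667.4, 675.2 and 709.4 CPM at 0 min. Every library of 42 min lay far above every library of 0 min, a change of 1.72 ± 0.11 (adjusted p = 5.25e-11, edgeR). The libraries of 6 min held 1040, 1090 and 1258 CPM, above all of 0 min. GTR1 shares the reads, so the rise cannot be given to NDI1 alone.

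Nde1 and Nde2 oxidise NADH on the outer, cytosolic side. NDE1 (YMR145C, chromosome XIII, 554793 to 556475, minus strand) had 2818, 2611 and 2764 CPM at 42 min and 2529, 2560 and 2177 CPM at 0 min. The change of 0.17 ± 0.09 did not pass (adjusted p = 0.0971, edgeR), although the groups did not overlap. At 12 min it fell, to 1867, 1951 and 1990 CPM, by 0.32 ± 0.09 (adjusted p = 0.00671, edgeR). This fall did not pass without replicate 1 (adjusted p = 0.0748, edgeR) or without replicate 2 (0.146). The lowest adjusted p over all alternatives was 2.82e-05. The mean of NDE1 was lowest at 18 min, with 1852 ± 138 CPM, against 2731 ± 107 CPM at 42 min (SD, n = 3), while the mean of NDI1/GTR1 was higher at each later time.

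NDE2 (YDL085W, chromosome IV, 303211 to 304848, plus strand) was too scarce for the test. It had 20.9, 19.5 and 58.4 CPM at 42 min and 2.67, 2.82 and 2.21 CPM at 0 min, without overlap. These levels rest on 12, 16 and 47 reads at 42 min and on 2, 3 and 3 reads at 0 min. The log2 ratio of reads on the SNVs of NDE1 to those of NDE2, read here only between times, was 6.53 ± 0.85 in the libraries of 42 min and 9.63 ± 0.08 in those of 0 min (SD, n = 3). For the difference of -3.10 an exact permutation test, two-sided, gave p = 0.1, and 3 libraries against 3 cannot go lower. The ratio had 0.5 added to each count. With 2 or 3 reads of NDE2 in each library of 0 min, the SD of 0.08 understates its counting error. All 229 reads of NDE2 came from the RM allele. With 0 BY reads, a BY share of up to 1.31% is allowed by counting error (a floor of 3 counts). The features beside it also held few BY reads: RAM1 had 0.55%, LUC7 1.73%, SUB2 13% and YDL085C-A 22.9%, and the share returned to 66.1% at RPL13A and 47.5% at RPP1A. Why this stretch lacks BY reads was not tested, and NDE2 gives no measure of allele-specific decay.

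Complex II, succinate dehydrogenase, links the citric acid cycle to the chain, and all 4 of its transcripts rose. SDH2 (YLL041C, chromosome XII, 53131 to 53931, minus strand) encodes the iron-sulfur subunit. It had 395.4, 342.4 and 461.3 CPM at 42 min and 121.7, 129.8 and 123.0 CPM at 0 min. The libraries of 42 min were all well above those of 0 min, a change of 1.68 ± 0.11 (adjusted p = 1.21e-10, edgeR). SDH4/CSN9 (YDR178W, chromosome IV, 817950 to 818495, plus strand) holds the gene of a membrane anchor and CSN9, a COP9 signalosome gene. It had 383.2, 365.6 and 419.0 CPM at 42 min and 184.6, 151.4 and 171.6 CPM at 0 min, a change of 1.21 ± 0.10. SDH3, the other membrane anchor, rose by 0.94 ± 0.11. SDH1, the flavoprotein subunit, rose least, by 0.57 ± 0.17 (adjusted p = 0.00465, edgeR), and its groups overlapped: 209.0, 292.5 and 386.7 CPM at 42 min and 202.0, 211.6 and 189.3 CPM at 0 min. Without replicate 3 the change was 0.29 and did not pass (adjusted p = 0.108, edgeR; 0.00067 to 0.173 over all alternatives).

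Complex III is the cytochrome bc1 complex, and 8 of its 9 features rose. QCR8/HAL5 (YJL166W, chromosome X, 106434 to 106718, plus strand) holds a small subunit and HAL5, a protein kinase of ion tolerance. It had 1376, 1195 and 1601 CPM at 42 min and 708.9, 626.3 and 689.5 CPM at 0 min, a change of 1.04 ± 0.12. QCR7 (YDR529C, chromosome IV, 1496165 to 1496548, minus strand) had 1299, 1220 and 1497 CPM at 42 min and 663.4, 684.6 and 670.4 CPM at 0 min, a change of 0.99 ± 0.10 (adjusted p = 3.07e-08, edgeR). Both roughly doubled their share with no overlap between times. QCR2, a core subunit, rose by 0.96 ± 0.08, and the other core subunit, in COR1/PSY4, by 0.64 ± 0.08. Of the catalytic subunits, RIP1, the Rieske iron-sulfur protein, rose by 0.71 ± 0.14 and CYT1, cytochrome c1, by 0.71 ± 0.09. QCR10 rose by 0.84 ± 0.12 and QCR9/TIM13/YGR182C by 0.67 ± 0.11.

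One feature of complex III fell. QCR6/PHO4 (QCR6, YFR033C, at chromosome VI, 224326 to 224769, minus strand) holds the gene of the acidic hinge-type subunit and PHO4, a transcription factor of phosphate starvation. It had 33.1, 20.7 and 18.6 CPM at 42 min and 140.4, 120.4 and 185.6 CPM at 0 min, a change of -2.67 ± 0.26 (adjusted p = 1.99e-08, edgeR). All libraries of 42 min were below all of 0 min, and 6.2% of all features had a lower change. With a mean of 60.6 reads per library and 3 SNVs it is also the shallowest of the complex. How many of its reads came from QCR6 and how many from PHO4 was not tested. No feature of a single member gene fell at 42 min by this test: of the 18 such features tested, 16 rose. COX9, described below, passed as lower under some alternatives.

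Complex IV is cytochrome c oxidase, and 4 of its 6 tested features rose. Its median of 0.43 was below that of ATP synthase, but not without replicate 1 (0.52 for both) or replicate 2 (0.49 against 0.48), and not in features of 1 gene (0.58 against 0.51). Without replicate 3 it was 0.24. COX5B (YIL111W, chromosome IX, 155222 to 155765, plus strand) encodes the isoform of subunit 5 known for use at low oxygen, while COX5A, the isoform used in air, had no SNV. COX5B had 165.5, 170.6 and 253.7 CPM at 42 min and 84.3, 76.2 and 83.2 CPM at 0 min, a change of 1.28 ± 0.16 (adjusted p = 5.68e-07, edgeR). Its course differed in shape from that of SDH2. Libraries of 6 min held 157.7, 139.3 and 160.9 CPM of COX5B and those of 12 min 211.4, 208.3 and 196.3 CPM, a change of 1.34 ± 0.16 by 12 min (adjusted p = 1.08e-06, edgeR), after which means stayed between 189 and 197 CPM. The mean of SDH2 was still 218 ± 25.2 CPM at 12 min and reached 400 ± 59.5 CPM at 42 min (SD, n = 3).

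COX13 (YGL191W, chromosome VII, 144808 to 145197, plus strand), a small accessory subunit, had 1108, 1046 and 1145 CPM at 42 min and 640.7, 709.0 and 661.5 CPM at 0 min, a change of 0.71 ± 0.10. COX12, another small subunit, rose by 0.45 ± 0.17, and COX8/CST9 by 0.40 ± 0.11, both with overlapping groups. Neither passed without replicate 3 (adjusted p = 0.279 for COX12 and 0.130 for COX8/CST9, edgeR). Over all alternatives their adjusted p ran from 0.0137 to 0.455 and from 0.00166 to 0.546 in the same order. COX4/YGL188C, with the gene of the zinc-binding subunit, had a change of 0.09 ± 0.09 (adjusted p = 0.347), and COX9 of -0.15 ± 0.11 (adjusted p = 0.214, edgeR). COX9 had 207.3, 242.5 and 266.1 CPM at 42 min and 272.9, 300.9 and 229.8 CPM at 0 min. It was lower at 42 min in 2 of 3 cultures, and passed as lower when replicate 3 was left out (adjusted p = 0.0243, edgeR). It also passed as lower with library totals (-0.47, adjusted p = 0.000997) and with a mean of at least 100 reads (-0.34, 0.00735). Over all alternatives its adjusted p ran from 0.000997 to 0.843.

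All 7 ATP synthase features tested rose, by 0.24 to 0.75, although with library totals in place of TMM 3 of the 7 did and ATP2 and ATP16 turned to -0.08 and -0.006. ATP1/YBL100C (YBL099W, chromosome II, 37053 to 38690, plus strand), with the alpha subunit of the catalytic head, had 1852, 1617 and 1834 CPM at 42 min and 1053, 1027 and 1068 CPM at 0 min, a change of 0.75 ± 0.08 (adjusted p = 8.35e-08, edgeR). ATP7 (YKL016C, chromosome XI, 407465 to 407989, minus strand), a stator stalk subunit, had 226.5, 244.9 and 227.5 CPM at 42 min and 157.8, 144.8 and 167.2 CPM at 0 min, a change of 0.57 ± 0.10. Neither gene's libraries overlapped between times. The stalk genes ATP4 and ATP5 each rose by 0.51, ATP14/YLR294C by 0.37 ± 0.09 and ATP16, the delta subunit of the central stalk, by 0.31 ± 0.11. ATP2, the beta subunit that pairs with Atp1 in the head, rose least, by 0.24 ± 0.09 (adjusted p = 0.0210, edgeR), and its groups overlapped. Without replicate 3 the change of ATP2 was 0.11 (adjusted p = 0.332, edgeR; 0.0105 to 0.503 over all alternatives) and that of ATP16 0.23 (adjusted p = 0.0628; 0.00519 to 0.96). ATP20, a subunit linked to dimers of the enzyme, had under 20 reads per library and was not tested for abundance.

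**Figure D2:**
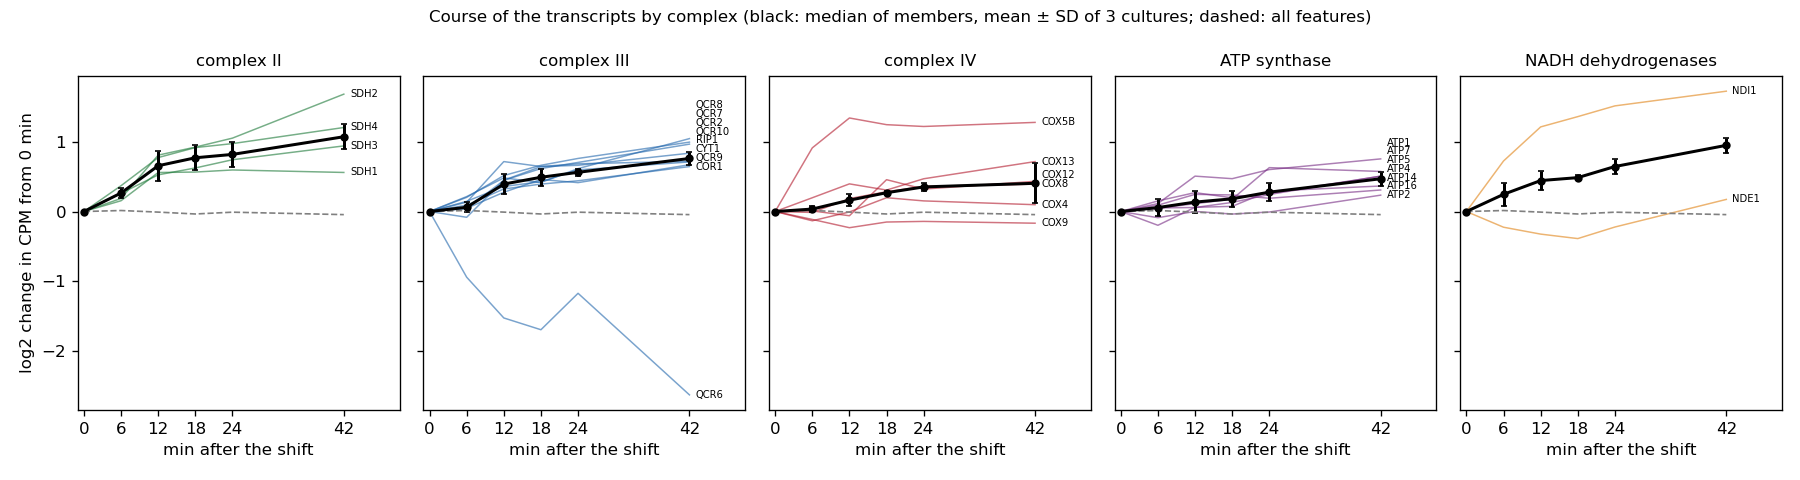
Log2 change in CPM from 0 min against minutes after the shift, 1 panel per complex. Thin lines are single genes (mean of 3 cultures, with names in the order of the level at 42 min), black points are the median of the complex (mean ± SD of 3 cultures), and the dashed line is the median of all features. The median of complex II lies at 0.26 at 6 min, against 0.06 for ATP synthase, COX5B is near its final level at 12 min, and QCR6 (counted with PHO4) is below its level of 0 min at every later time.

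The comparison of 12 min with 0 min shows which members moved early. Of the 28 features 17 rose and 2 fell by that time, against 27.8% and 26.8% of all features (54.6% in either direction). The features that fell were QCR6/PHO4, by 1.55 on the log2 scale, and NDE1. All 4 complex II genes had risen (median 0.66), as had 8 of 9 of complex III (median 0.44). In complex IV 2 of 6 had, COX5B and COX13 (median 0.09), and in ATP synthase 2 of 7, ATP1 and ATP4 (median 0.11). QCR9/TIM13/YGR182C and ATP4 did not pass with DESeq2 (adjusted p = 0.0522 and 0.061). Both also failed without replicate 2 (adjusted p = 0.114 and 0.0929, edgeR) or replicate 3 (0.338 and 0.211). SDH1 failed without replicate 2 (adjusted p = 0.0539, edgeR) or replicate 3 (0.0777), and QCR10 without replicate 3 (0.174). The median of all 28 members, as a mean of the 3 cultures, was 0.08 ± 0.08 at 6 min, 0.35 ± 0.14 at 12 min, 0.39 ± 0.08 at 18 min, 0.49 ± 0.06 at 24 min and 0.65 ± 0.11 at 42 min (SD, n = 3). The values of 12 and 42 min share the libraries of 0 min.

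The question of the study itself is whether the BY share of a transcript changes over the course, which is allele-specific decay. None of the 28 tested members passed, with edgeR or with DESeq2, against 6.70% of all 2808 features tested by edgeR (3.63% with a rising and 3.06% with a falling BY share). At an unadjusted p under 0.05 there were 5 of the 28 with edgeR and 3 with DESeq2, against 16.4% and 12.6% of all features, which is near the background. The change of log2(BY/RM) over 42 min ran from -0.68 ± 0.35 for QCR6/PHO4 to 0.23 ± 0.08 for COX13. The median size of the change was 0.11 for the members and 0.18 for all features. These sizes are not compared at like depth: 26 of the 28 members, but 1488 of the 2808 features, had a mean of at least 100 reads. Of those 1488 features 151 passed. Standard errors of members ran from 0.05 to 0.35 (median 0.10), so a small change of most members, or a large one of QCR6/PHO4, was not detectable at this depth.

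COX13 came nearest to a call. Its BY share was 50.0, 51.9 and 55.3% at 42 min and 53.9, 48.8 and 46.9% at 0 min, higher at 42 min in 2 of 3 cultures (adjusted p = 0.0976, edgeR). Without replicate 1 it passed, with a change of 0.33 (adjusted p = 0.0334, edgeR; up to 0.759 without replicate 3). QCR8/HAL5 had a change of -0.20 ± 0.08 (adjusted p = 0.122, edgeR), and its share was 49.1, 45.0 and 47.3% at 42 min and 48.7, 51.2 and 51.7% at 0 min. SDH2 and NDI1/GTR1, which gained most in level, had changes of -0.20 ± 0.14 and -0.02 ± 0.07. The measured genes with a Puf3-type element shown above had -0.14 ± 0.07 (ATP1/YBL100C), 0.13 ± 0.15 (SDH1) and 0.07 ± 0.16 (COX8/CST9).

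**Figure D3:**
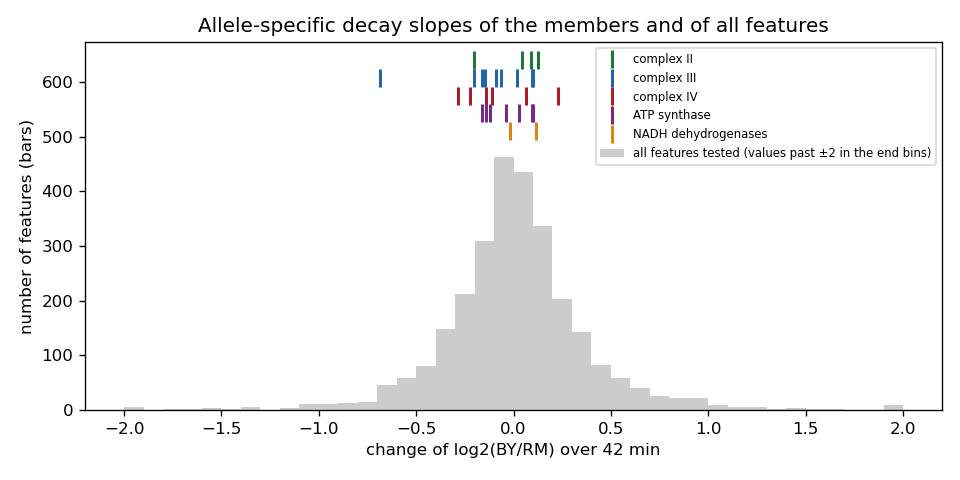
Change of log2(BY/RM) over 42 min for all features tested (bars, number of features per bin) and for each member (ticks, a row per complex). All ticks lie between -0.68 and 0.23, and none passed the test.

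Differences between the alleles at the time of the shift were tested next. At 0 min 13 of 29 members passed the test of BY against RM (edgeR's quasi-likelihood test, Benjamini-Hochberg adjusted p under 0.05), 7 with more BY reads and 6 with more RM reads, where 10.5% and 12.5% of all 3030 features did. The differences were small: their median size was 0.36 on the log2 scale, against 0.49 for all called features. Members were also read more deeply than most features. With a mean of at least 100 reads, edgeR called 7 of 26 members toward BY and 5 toward RM, against 564 of 1832 features in either direction. DESeq2 called 0 of the 29, against 229 of all 3030 features. At an unadjusted p under 0.05 it had 8 of the 29, against 13.3% of all features, while edgeR without the library terms called 5 of the 29 (ATP16, QCR7, COX4/YGL188C, COX5B and SDH1), so these 13 calls depend on the tool.

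COX5B had the largest difference toward BY. Its BY share at 0 min was 65.1, 58.0 and 65.5%, a log2(BY/RM) of 0.77 ± 0.18 (adjusted p = 0.00269, edgeR), and each of its 5 SNVs lay between 62.2% and 75.9% BY over all libraries. QCR6/PHO4 followed, with 49.5, 65.6 and 63.5% and a difference of 0.64 ± 0.15. COX4/YGL188C had 59.1, 58.2 and 56.0% (0.43 ± 0.10). NDI1/GTR1 had 55.3, 53.6 and 56.0% (0.29 ± 0.06), with 9 of 11 SNVs above 50%. QCR10 had 57.0, 54.3 and 53.0% (0.26 ± 0.09, adjusted p = 0.0366, edgeR), ATP14/YLR294C 50.9, 55.7 and 54.3% (0.23 ± 0.07) and COR1/PSY4 53.7, 51.6 and 53.7% (0.17 ± 0.04). Leaving out replicate 3 left 2 of these 7 calls, and only COX5B and QCR10 are features of 1 gene. Neither COX5B nor QCR10 passed without replicate 3 (adjusted p = 0.0676 and 0.0584, edgeR). QCR10 also did not pass without replicate 1 (adjusted p = 0.161, edgeR), without replicate 2 (0.158) or with no read filter (0.062).

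Among members with more RM reads, ATP20 had the largest difference and the fewest reads. Its BY share at 0 min was 25, 29.2 and 30.0%, a difference of -1.27 ± 0.35 (adjusted p = 0.0100, edgeR) from 1 SNV. SDH1 had 45.7, 40.9 and 40.5% (-0.47 ± 0.11), and its 3 SNVs lay between 30.3% and 42.3%. QCR7 had 42.3, 42.2 and 45.9% (-0.36 ± 0.06, adjusted p = 0.000182, edgeR), with 3 SNVs from 28.7% to 45.3%. The remaining differences were smaller or as small: ATP16 had 44.7, 43.1 and 43.7% (-0.36 ± 0.07), ATP2 47.1, 44.9 and 45.8% (-0.24 ± 0.05) and QCR2 47.3, 48.1 and 46.6% (-0.16 ± 0.04). All 6 are features of 1 gene. QCR2 did not pass without replicate 3 (adjusted p = 0.111, edgeR), nor SDH1 without replicate 2 (0.064). ATP20 had 8, 24 and 30 reads at 0 min, and without replicate 2 or 3 it fell below the filter of 20 reads and was not tested. The catalytic beta subunit gene ATP2 and the delta subunit gene ATP16 were thus called toward RM by edgeR, as were SDH1, QCR2 and QCR7. None of the 6 complex IV features was. With 12.5% of all features called toward RM, that count is no result about the complex.

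The 15 libraries of later times took no part in that test. In all 15 the share of ATP2, COR1/PSY4, QCR2, QCR7, COX5B, SDH1 and NDI1/GTR1 lay on the same side of 50% as at 0 min. For ATP14/YLR294C and COX4/YGL188C it did so in 14, for ATP16 and ATP20 in 13, for QCR10 in 12 and for QCR6/PHO4 in 9. These libraries come from the same 3 cultures and the same SNVs. For 8 of the 13 every SNV with at least 100 reads lay on the same side, but 4 of these 8 have 1 or 2 such SNVs only. In QCR2 5 of 9 SNVs and in COR1/PSY4 11 of 14 lay on the side of the call. The same held for 1 of 2 in QCR10, 2 of 3 in ATP2 and 9 of 11 in NDI1/GTR1.

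**Figure D4:**
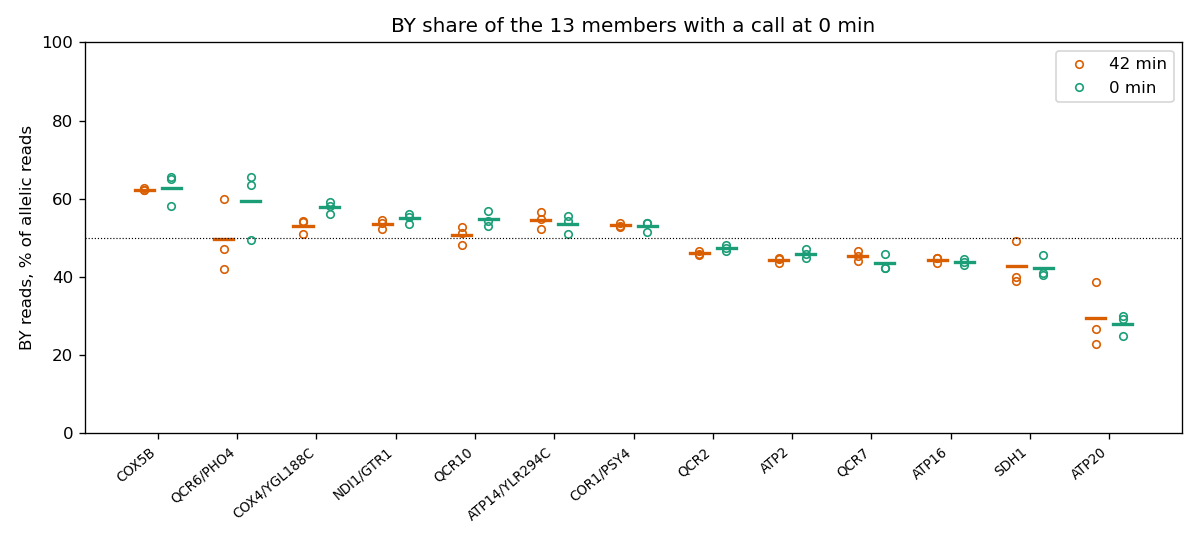
BY share of reads (percent) of the 13 members that differed between alleles at 0 min, in each library of 42 min (left) and of 0 min (right). Points are the libraries of the 3 cultures, short bars their means, and the dotted line is 50%. COX5B lies at 62.1 to 62.8% at 42 min and 58.0 to 65.5% at 0 min, and QCR7 at 44.2 to 46.6% at 42 min and 42.2 to 45.9% at 0 min.

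Other genes of the pathway were counted as lists, to be read against the 37.2% of all features that rose by 42 min and the 39.0% that fell. Of electron carriers and ubiquinone synthesis genes, 13 of 14 had a feature and 10 of 12 tested rose by 42 min, with 1 lower and a median of 1.19. CYC7, COQ3, COQ4, COQ7, CYB2 and DLD1 are features of 1 gene, and all of these rose. The features of CYC1, COQ1, COQ5, COQ6, COQ9 and GUT2 are counted together with other genes, such as ENO1 with COQ6. CYB2, lactate dehydrogenase feeding cytochrome c, rose by 4.71 ± 0.39, CYC7, the cytochrome c isoform known for low oxygen, by 4.51 ± 0.25 and COQ4, of ubiquinone synthesis, by 2.35 ± 0.23. By 12 min CYC7 had risen by 4.20 ± 0.26, as COX5B had by 1.34. Of ATP synthase inhibitors and carriers, 4 of 7 tested rose and none fell (median 1.69), with STF1, an inhibitor of the enzyme, at 3.03 ± 0.17, PIC2, a mitochondrial phosphate carrier, at 2.75 ± 0.24 and STF2/ECT1 at 1.84 ± 0.18.

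Assembly factors, which build the complexes but are not part of them, were counted next. Of 43 genes 31 had a feature, and of 23 tested 10 rose and 8 fell, near the 37.2% and 39.0% of all features, with a median of 0.20. Many of these features are counted together with other genes. In features of 1 gene, COX17, SCO1, PET111, PET117, FMC1 and CYT2 rose, COX19, ATP11 and CYC3 fell and AEP1 did not pass. The feature of SDH7, a complex II assembly factor, with EMI1, GRX2 and YDR514C rose by 1.19 ± 0.10, SCO1, which carries copper to complex IV, rose by 1.14 ± 0.25, and the feature of MSS51, a translational activator of COX1, with YKE2, COQ9 and YLR202C fell by 1.75 on the log2 scale. Through COQ9, the MSS51 feature is also the lower feature counted above among carriers and ubiquinone synthesis genes. Of 7 regulators tested, 3 rose and 2 fell (median 0.46). HAP4, the regulated subunit of the CCAAT-binding complex, rose by 1.65 ± 0.19 (adjusted p = 2.19e-07, edgeR), HAP2 in a feature with DOC1, YGL239C and CSE1 by 1.53 ± 0.11, and MKS1, a negative regulator of retrograde signalling, by 0.69 ± 0.14.

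Allele-specific decay was called for 1 of 23 assembly factors, 1 of 11 carriers, 0 of 7 inhibitors and carriers of ATP synthase and 1 of 7 regulators, against 6.70% of all features. These were HAP1, a heme-responsive regulator of respiratory genes (1.62 ± 0.17), PET54/HSV2, with an activator of COX3 translation (0.98 ± 0.17), and DLD1, a D-lactate dehydrogenase (-0.55 ± 0.13, adjusted p = 0.00169, edgeR). Differences at 0 min, by the edgeR test whose member calls DESeq2 did not make, were called for 23.0% of all features. They were called for 4 of 23 assembly factors, all with more BY reads, among them CYC3 (0.99 ± 0.26), CBP6/MUD1 (0.92 ± 0.15) and SDH5/NBA1 (0.44 ± 0.16), and for 2 of 7 inhibitors and carriers, POR1 (0.49 ± 0.06) and PET9/SHE1 (0.27 ± 0.03). Of 11 carriers, 5 were called, with COQ1/GPI18 at -7.53 ± 0.20, CYC7 at 1.10 ± 0.30 and COQ6/ENO1 at -0.39 ± 0.09. COQ1/GPI18 lacked nearly all BY reads. Of 8 regulators, 3 were called, HAP1 (0.78 ± 0.09), PUF3/EMC6 (-0.58 ± 0.09) and the HAP2 feature (-0.51 ± 0.14).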

How the data were processed

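The deposited values are raw read counts for either allele at each SNV. Per the file headers, reads were aligned to both parental genomes, duplicates were removed and overlapping genes were joined into 1 feature with untranslated regions. The submitters' processing notes name sacCer3, BWA 0.5.9 and Picard 1.43. All libraries were sequenced in 1 lane, per the labels' protocols. The deposited table of the whole series held 30497 of the 35952 SNVs of the library tables, with identical counts, and was used here. The other SNVs carried 9.82% of reads; the rule that left them out is not stated in the labels or headers.

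Counts were summed per feature and allele. Features with a mean of at least 20 reads per library were tested by the quasi-likelihood F-test of edgeR 4.0.16 in R 4.3.3, with Benjamini-Hochberg adjustment over all features and a threshold of 0.05. Abundance used both alleles summed, scaled by TMM, with 6 time levels. Allele-specific decay used 36 allele columns, a term per library and an allele by time slope in minutes, shown over 42 min, with at least 2 reads of each allele per library on average. The difference at 0 min used 6 allele columns and a term per library. Alternatives were DESeq2 1.42.0, other scalings and filters, all SNVs, no or added replicate terms and leaving out libraries. Motifs were searched in the R64 genome, and no other gene near-identical to a member was found with blastn 2.17.0. Tables and figures used matplotlib 3.10.9, numpy 2.4.6 and pandas 2.3.3 under Python 3.11.15. Reads carry no molecular identifiers, and a read over several SNVs can count at each, so intervals and floors cover counting error only.

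Per the labels the cultures were independent and aliquots of each were taken at every time, so replicate numbers pair libraries. Deviations from time means correlated with a median r of 0.159 between libraries of the same number (45 pairs, from -0.044 to 0.452) and of -0.058 otherwise (90 pairs). Libraries of one time differed by more than sampling noise in every pair (chi-square per degree of freedom, 1.35 to 8.61). On simulated counts for 2806 features, the decay test found 5.05% of simulated log2 slopes of 0.5 and 51.5% of those of 1, and 3.45% of its calls were false. The simulation drew the alleles of a library independently, with a fixed spread that was not estimated from these data. Its rates are therefore not detection rates of the members, whose measured slopes had a median standard error of 0.10.

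The members, lists and tests were chosen with earlier results of these data known. Named genes were the members, with values per library for the 2 of each complex with the largest change in each direction, for those passing an allele test and for isoform pairs, and the 3 called genes with the largest change per list and test. COX9, SDH1, COX13 allele shares and the neighbours of NDE2 were added after their values were seen.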

Additional observations from a re-analysis of the deposited data

How the results depend on the processing

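The direction and test side of most results held under the alternatives run, and the exceptions follow; their causes were not tested beyond what an alternative changes by construction. For allele-specific decay, the count over all features was 188, against 120 with DESeq2, 86 without 0 min and 98 to 129 with a replicate left out, where the members called ranged from 0 to 1; the replicate block gave 184 and 0. For the alleles at 0 min, the count was 697, against 229 with DESeq2, 298 with no replicate block and 428 to 561 with a replicate left out. The 7 members with more BY reads became 0 with DESeq2, 2 with no replicate block, 2 to 7 with a replicate left out and 2 in features of 1 gene, an alternative chosen after seeing the data. The 6 with more RM reads became 0 with DESeq2, 3 with no replicate block and 4 to 6 with a replicate left out. With a replicate left out the members called were not always the same. QCR2 did not pass without replicate 3 (adjusted p = 0.111, edgeR), where 6 were called toward RM. QCR10 did not pass without replicate 1 (0.161), where 7 were called toward BY. The replicate block changed no member count at 42 min (24 and 1) and gave 18 higher and 2 lower at 12 min. A minimum of 100 reads, with fewer features, left 1235 calls at 42 min and 947 at 12 min. Medians of complexes then were 0.33 for ATP synthase, 0.59 for complex III, 0.21 for complex IV, 0.89 for complex II and 0.76 for NADH dehydrogenases. With library totals they were 0.19 for ATP synthase, 0.39 for complex III, 0.11 for complex IV, 0.75 for complex II and 0.63 for NADH dehydrogenases. With no filter the NADH dehydrogenases stood at 1.74. In features of 1 gene complex II stood at 0.94, complex III at 0.84 and the NADH dehydrogenases at 0.17. With a replicate left out, ATP synthase ranged from 0.41 to 0.52 and complex IV from 0.24 (without replicate 3) to 0.52. Members lower at 42 min were 1, against 2 with library totals, 0 in features of 1 gene and 1 to 2 with a replicate left out. At 12 min, library totals gave 10 higher and 4 lower, features of 1 gene 11 and 1, and leaving out a replicate 1 to 2 lower. Changes turned negative for COX4 (-0.0912) and NDE1 (-0.00816) with 100 reads, and for COX4 (-0.225), NDE1 (-0.144), ATP2 (-0.0838) and ATP16 (-0.00603) with library totals. The planned pair of COX5A and COX5B was not run, since COX5A has no SNV, and for NDE1 and NDE2 pairing by culture gave an exact p of 0.25.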
